A study of Mus musculus with 8 samples.

Results

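The genes described here are 9 genes of gonadal germ cells, of 16593 genes with a symbol on the array: Dazl, Ddx4, Nanos2, Tex14, Tex101, Tuba3a, Slc25a31, Taf7l and Rnf17. They were taken by name, and every probe that the platform annotation gives one of these symbols was kept, 15 of 25697 probes in all. Their positions on GRCm38.p6, from RefSeq, were chr17:50279393-50293620 for Dazl, chr13:112598333-112652633 for Ddx4, chr7:18987524-18988962 for Nanos2, chr11:87405013-87555823 for Tex14 and chr7:24668012-24672050 for Tex101. Tuba3a lies at chr6:125278270-125286081, Slc25a31 at chr3:40708871-40726094, Taf7l at chrX:134460116-134476505 and Rnf17 at chr14:56402650-56525032. Illumina MouseRef-8 v2 bead chips were used to measure RNA in embryonic stem cells (ESCs), in primordial germ cells (PGCs) derived from them in vitro and in epiblast stem cells (EpiSCs, primed pluripotent cells of the implanted epiblast). All 8 samples were labelled C57BL/6. The wt ESCs and the Gcnf-deficient ESCs (Gcnf-/-, lacking germ cell nuclear factor) both carried the Oct4-GFP(ΔPE) reporter, a GFP transgene under Oct4 regulatory sequence without its proximal enhancer. Both were differentiated without LIF and feeders, and GFP-positive cells were sorted on day 12 and on day 15. Each of the 6 ESC and PGC conditions had 1 array, and EpiSCs, labelled as not Gcnf-deficient, had 2.

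With 1 array for a condition, genotype cannot be told apart from the cell line. In the methods, wt ESCs of both sexes and female Gcnf-/- ESCs are named, and the sources used here do not tie a wt line to an array. ESCs were grown on irradiated fibroblasts, whereas PGCs were not. In such bulk samples, fewer cells of a type and less RNA per cell cannot be told apart.

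Germ cells hold RNA-binding proteins, helicases and tudor-domain proteins in cytoplasmic granules, where they process germline messages and piRNAs. Genes of this kind come on when PGCs enter the gonad, and in somatic cells many of them are kept silent by DNA methylation at CpG-rich promoters or by E2F6-containing Polycomb complexes. Gcnf (Nr6a1) is an orphan nuclear receptor that binds a direct repeat of the motif AGGTCA with no gap between the copies and represses its targets.

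RefSeq promoter windows (GRCm38.p6) were found for 8 of the 9 genes; Rnf17 had none in the table used. The 250 bases before the start are given for the 3 genes with a window whose detected probes were all lower in Gcnf-deficient than in wt cells at each stage. Capitals mark matches, on either strand, to TCCCGC (the core that E2F6 binds) or CACGTG (an E-box). The windows are chr17:50293621-50293870 (minus strand) for Dazl, chr6:125286082-125286331 (minus strand) for Tuba3a and chrX:134476491-134476740 (minus strand) for Taf7l.
Dazl: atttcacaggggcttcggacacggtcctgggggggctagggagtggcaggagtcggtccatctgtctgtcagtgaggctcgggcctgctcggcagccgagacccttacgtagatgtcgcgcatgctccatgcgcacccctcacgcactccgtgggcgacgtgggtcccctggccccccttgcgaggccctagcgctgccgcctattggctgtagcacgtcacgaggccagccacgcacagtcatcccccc
Tuba3a: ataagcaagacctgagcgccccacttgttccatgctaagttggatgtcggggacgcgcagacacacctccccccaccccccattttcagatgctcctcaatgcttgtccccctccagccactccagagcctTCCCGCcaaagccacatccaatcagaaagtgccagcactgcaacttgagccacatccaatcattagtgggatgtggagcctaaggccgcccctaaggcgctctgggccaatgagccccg
Taf7l: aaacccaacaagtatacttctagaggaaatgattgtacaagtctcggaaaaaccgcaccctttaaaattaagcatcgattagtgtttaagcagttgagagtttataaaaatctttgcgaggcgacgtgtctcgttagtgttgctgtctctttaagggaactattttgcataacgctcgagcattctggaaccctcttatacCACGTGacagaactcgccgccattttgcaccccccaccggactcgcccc
The Dazl window held 20 CpGs and had a GC content of 67.2%, more CpGs than 82.1% of 32851 mouse promoter windows of the same length, whose median was 6. Tuba3a had 8 CpGs and Taf7l 14, with a GC content of 58.4% and 44.8%. Neither AGGTCA nor its gapless direct repeat was found in any of the 8 windows, and among all promoters 14% held the single motif and 0.00609% the repeat. TCCCGC occurred once in the windows of Ddx4, Tex14 and Tuba3a (16.9% of all promoters) and CACGTG once in those of Ddx4, Slc25a31 and Taf7l (6.02%). Ddx4 was the member with both, as were 1.45% of all promoters. Its window had 31 CpGs, and that of Nanos2 had 0. The Ddx4 window lay inside the annotated gene, and those of Tex14 and Taf7l reached into theirs. For these genes another annotated start thus stands further upstream. These matches are a description of letters only.

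The state of the arrays bears on all that follows. Nr6a1, the targeted gene, had a normalized log2 signal of 9.64, 10.38 and 9.83 in wt ESCs, day-12 and day-15 PGCs and of 11.03, 9.94 and 10.05 in Gcnf-deficient cells. Whether its probe lies in the deleted part of the gene is not given, so it checks no label. Of 10 PGC markers with a probe, 7 to 9 were detected on each ESC and PGC array, 4 on each EpiSC array, and Prdm1 on none. Dppa3, with the largest rise in wt cells, had 11.17 and 11.38 in wt PGCs against 7.06 in wt ESCs. In Gcnf-deficient cells it had 10.28 and 10.52 against 8.15. In wt day-15 PGCs, Nanos3, Ifitm3 and Pou5f1 lay below wt ESCs (−0.25, −0.80 and −0.53 in log2), and the other tested markers lay above. Median raw signals were 158 to 189 on the wt arrays and 138 to 146 on the Gcnf-deficient arrays. The wt ESC array detected 10 of 11 fibroblast markers with a probe, with a summed signal of 18982 against 212 to 2509 on the other 5 ESC and PGC arrays. The wt day-12 array was the only 1 to detect Y-linked Eif2s3y (11.64). Y-linked Kdm5d and Uty were also highest on wt day 12 but did not set that array apart by detection. Kdm5d was detected on no array (4.27 on wt day 12), and Uty, at 5.03 to 6.53, was detected on arrays of both genotypes. Since the Gcnf-/- ESCs are named as female, the Uty probe does not tell the sex of an array. The EpiSC replicates differed with an SD of 0.26 in log2 over the probes that both detected.

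Of the 15 probes, 9 were detected (detection p under 0.01) on at least 1 ESC or PGC array. They covered 6 genes: Dazl, Ddx4, Tex14, Tuba3a, Taf7l and Rnf17. Day-15 wt PGCs, day-15 Gcnf-deficient PGCs, day-12 wt PGCs and Gcnf-deficient ESCs each had signal for all 6 genes, wt ESCs for 5 and day-12 Gcnf-deficient PGCs for 4. EpiSCs had signal for 1, Tuba3a, on 1 of its 4 probes. Of all probes, 39.6% to 43.9% were detected on the ESC and PGC arrays and 39.6% and 38.7% on the EpiSC arrays. Nanos2, an RNA-binding protein that keeps male germ cells out of meiosis, was detected on no array (3.46 to 5.29). Tex101, a surface protein of spermatocytes and spermatids, was likewise below the limit on all 8 arrays (4.07 to 5.45). So was Slc25a31, the germ cell ADP/ATP carrier, on both of its probes (2.40 to 4.20). For these 3 genes only the limit of the array is known, and no difference is given. The lowest signal that counted as detected was 5.38 to 6.03.

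**Figure D1:**
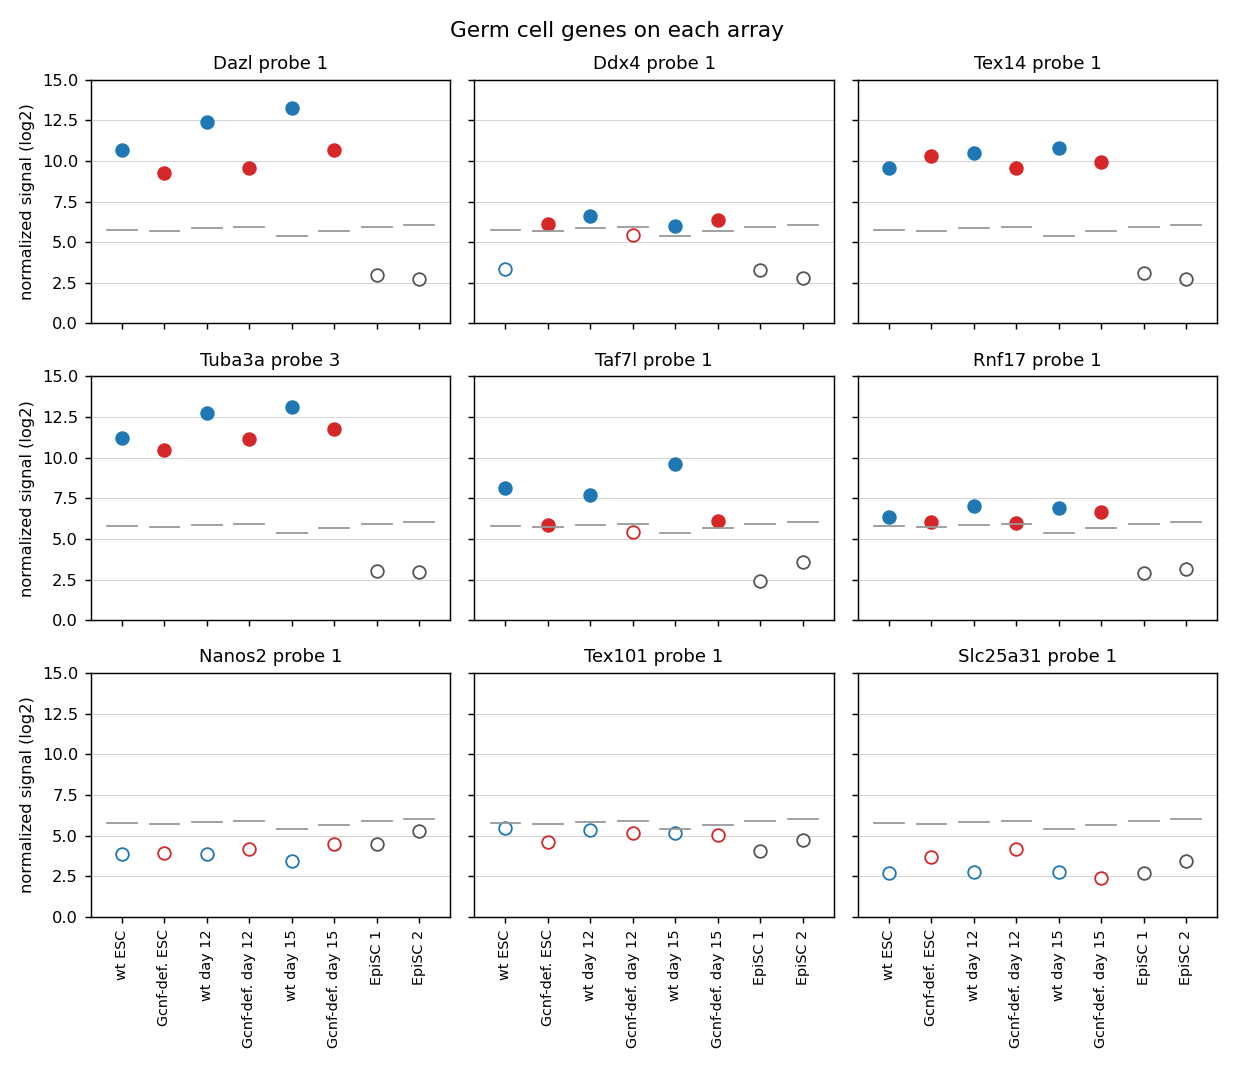
Normalized log2 signal (y axis) of 1 probe for each of the 9 genes on the 8 arrays (x axis; blue wt, red Gcnf-deficient, grey EpiSC). Filled points were detected at p under 0.01, open points were not, and each grey bar is the lowest detected signal of that array. Nanos2, Tex101 and Slc25a31 have open points alone, and the 6 other genes, Tuba3a here by its probe 3, have open points on both EpiSC arrays.

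The first question was how the genes stood in wt and Gcnf-deficient cells of the same stage. Dazl, an RNA-binding protein that promotes translation in germ cells, had log2 signals of 10.64, 12.42 and 13.25 in ESCs, day-12 PGCs and day-15 PGCs of the wt. The corresponding Gcnf-deficient signals were 9.25, 9.59 and 10.66. Each Gcnf-deficient array lay below the wt array of its stage, but the Gcnf-deficient day-15 level reached that of wt ESCs, so the genotypes overlapped across stages. The Gcnf-deficient signal was 7.11-fold lower on day 12 and 6.02-fold lower on day 15, and 2.64-fold lower before differentiation.

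Taf7l, a germ cell paralog of the TFIID subunit Taf7 that is encoded on the X chromosome, had 8.13, 7.73 and 9.59 in wt ESCs, day-12 and day-15 PGCs. Without Gcnf it had 5.87 in ESCs, an undetected 5.40 on day 12 and 6.13 on day 15. All 3 Gcnf-deficient values lay below all 3 wt values, the only tested member probe of 9 for which that held, beside 8.65% of all tested probes. Taf7l was 4.78-fold lower in ESCs, at least 3.51-fold lower on day 12 and 11.0-fold lower on day 15. "At least" here sets the detected signal against the lowest signal detected on the other array.

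Tuba3a, an α-tubulin of the testis, had 4 probes. In wt cells they gave 10.44 to 11.25 in ESCs, 11.78 to 12.75 on day 12 and 12.25 to 13.10 on day 15. In Gcnf-deficient cells they gave 9.80 to 10.47, 10.01 to 11.16 and 10.79 to 11.79. All 4 probes were lower without Gcnf at each of the 3 stages, by 1.56-fold to 1.80-fold in ESCs, 2.73-fold to 3.41-fold on day 12 and 2.23-fold to 2.84-fold on day 15. On these 6 arrays the probes of the gene differed by up to 1.15 in log2.

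Rnf17, a tudor-domain protein of male germ cell granules, was the dimmest gene that every ESC and PGC array detected. It had 6.33, 7.03 and 6.88 in wt and 6.05, 5.97 and 6.66 in Gcnf-deficient ESCs, day-12 and day-15 PGCs. The largest gap was 2.09-fold, on day 12. Tex14, which keeps the bridges between dividing germ cells open, had 9.55, 10.46 and 10.78 in wt and 10.33, 9.59 and 9.92 in Gcnf-deficient cells. It was thus 1.72-fold higher without Gcnf in ESCs and 1.83-fold and 1.82-fold lower on days 12 and 15.

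Ddx4 (mouse vasa homolog), the RNA helicase of germ granules, was near the limit throughout. Its brightest probe gave 3.37 (undetected), 6.64 and 6.00 in wt ESCs, day-12 and day-15 PGCs and 6.12, 5.47 (undetected) and 6.39 in Gcnf-deficient cells. It was at least 1.27-fold higher without Gcnf in ESCs, at least 1.65-fold lower on day 12 and 1.32-fold higher on day 15. The other 2 Ddx4 probes were detected on no array (2.34 to 5.13), so the gene's signal rests on 1 of its 3 probes.

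**Figure D2:**
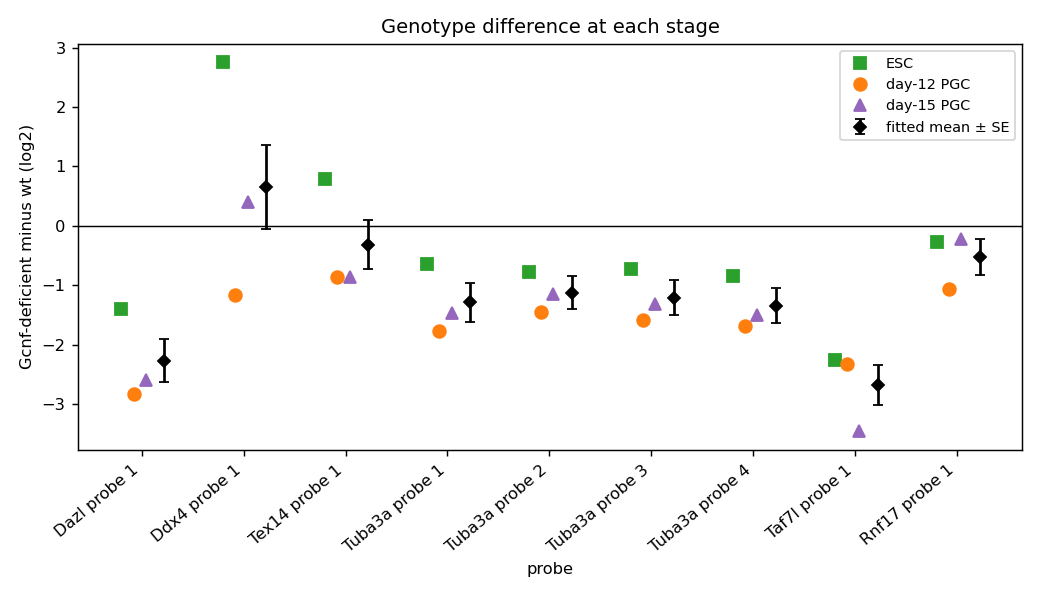
Gcnf-deficient minus wt difference in log2 (y axis) for the 9 tested member probes (x axis) in ESCs, day-12 PGCs and day-15 PGCs, with the fitted mean over the 3 stages ± SE in black. Dazl, Tuba3a, Taf7l and Rnf17 lie below 0 at every stage, whereas Ddx4 and Tex14 lie above 0 in ESCs.

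Of the 9 tested member probes, 7 were lower without Gcnf at all 3 stages, as were 21% of all 12717 tested probes. Over 4-fold differences numbered 2 of 9 lower on day 12 (1.1% of all probes tested) and 2 of 9 lower on day 15 (1.62%), Dazl and Taf7l on both days. The day-12 difference of Taf7l used an undetected Gcnf-deficient signal, and its bound was 3.51-fold. In ESCs 1 was lower (2.85%), Taf7l, and 1 higher (2.09%), Ddx4, which had a bound of only 1.27-fold. Medians over the 9 probes were −0.74, −1.59 and −1.31 in ESCs, day-12 and day-15 PGCs, beside −0.01, 0.00 and −0.10 over all probes tested. Of the 9 probes 4 read Tuba3a and are not independent, and each of these medians was the value of Tuba3a probe 3.

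In the fit across stages, which treats the 3 stages as replicates of genotype, Taf7l was estimated at −2.68 ± 0.34 (SE) in log2 and ranked 24th of 12717 probes by p (limma, stage as a block, adjusted p = 0.114). Dazl was estimated at −2.27 ± 0.36 (adjusted p = 0.127). The Tuba3a probes were at −1.13 to −1.35 (adjusted p = 0.199 to 0.216), Rnf17 at −0.52, Tex14 at −0.32 and Ddx4 at 0.66. No member passed an adjusted p of 0.05, at which limma called 0.00786% of all probes higher and 0% lower. At an unadjusted p under 0.05, 6 of 9 member probes were lower (Dazl, Taf7l and all 4 of Tuba3a), against 6.74% of all probes. Dazl and Taf7l did pass without the ESC arrays (−2.71 and −2.89, both adjusted p = 0.0478). Without the day-12 arrays, of which the wt array alone detected Eif2s3y, the estimates were −1.99 and −2.86 (limma, adjusted p = 0.233 and 0.187). Over all 12 settings, the main fit among them, each probe passed in 3. The limma adjusted p ran from 0.00792 to 0.509 for Dazl and from 0.00818 to 0.509 for Taf7l. The brightness of the arrays moved with genotype, and its part in these values was not tested.

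The next question was how the genes differed between PGCs and ESCs of the same genotype. In wt cells Dazl was 3.43-fold higher on day 12 and 6.07-fold higher on day 15 than in ESCs. In Gcnf-deficient cells it was 1.27-fold and 2.66-fold higher. The wt PGC levels of both days lay above all 3 Gcnf-deficient levels.

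Tuba3a followed the same order on its 4 probes, 2.53-fold to 2.93-fold higher on day 12 and up to 3.73-fold higher on day 15 in wt cells. In Gcnf-deficient cells it was 1.15-fold to 1.74-fold and 1.99-fold to 2.50-fold higher. Over the 6 arrays the Pearson correlation of Dazl with Tuba3a probe 1, the Tuba3a probe with the highest mean over all 8 arrays but the dimmest of the 4 on each of these 6, was 0.99, and with Rnf17 0.91, Taf7l 0.87, Tex14 0.67 and Ddx4 0.23, all from arrays of the same set.

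Taf7l did not share this order. In wt cells it was 1.32-fold lower on day 12 and 2.76-fold higher on day 15 than in ESCs, and 3.65-fold higher on day 15 than on day 12. In Gcnf-deficient cells it was 1.20-fold higher on day 15 than in ESCs, both near the limit. Rnf17 was 1.63-fold and 1.47-fold higher in wt PGCs on days 12 and 15, and 1.06-fold lower and 1.53-fold higher in Gcnf-deficient PGCs.

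Tex14 was 1.89-fold and 2.35-fold higher than in ESCs in wt PGCs on days 12 and 15, but 1.67-fold and 1.33-fold lower in Gcnf-deficient PGCs. Ddx4, undetected in wt ESCs, was at least 1.82-fold higher on day 12 and at least 1.16-fold higher on day 15 in wt PGCs. In Gcnf-deficient cells, whose ESC array detected it, it was at least 1.16-fold lower on day 12 and 1.21-fold higher on day 15.

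**Figure D3:**
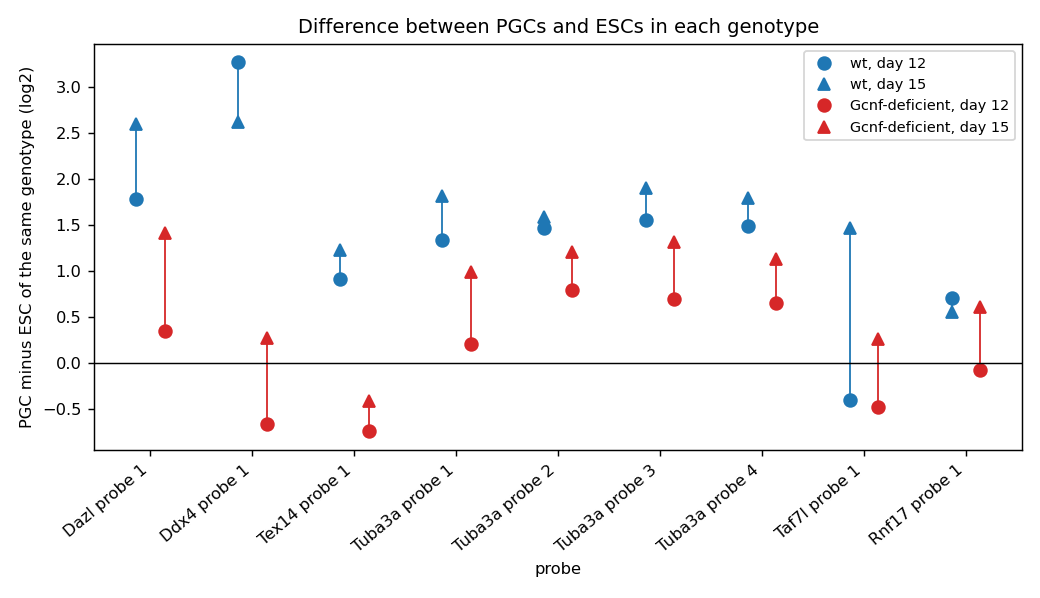
PGC minus ESC difference in log2 within each genotype (y axis) for the 9 tested member probes (x axis), blue wt and red Gcnf-deficient, circles day 12 and triangles day 15, joined by a line. The mean of the wt points lies above the mean of the Gcnf-deficient points for all 9 probes, and Tex14 lies above 0 in wt and below 0 in Gcnf-deficient cells on both days.

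Over both days, 8 of 9 member probes were above ESCs on both wt PGC arrays (35.4% of all probes) and 5 of 9 on both Gcnf-deficient PGC arrays (38.4%). Over 4-fold higher than wt ESCs were 1 member probe on day 12 (Ddx4, 3.29% of all probes) and 2 on day 15 (Dazl and Ddx4, 5.14%), and in Gcnf-deficient cells 0 (1.78% and 2.91%). Those of Ddx4 used the undetected wt ESC signal, and its bounds were 1.82-fold and 1.16-fold. PGCs against ESCs with genotype as a block gave 1.53 ± 0.48 (SE) for Dazl (limma, adjusted p = 0.175) and 1.09 to 1.37 for the Tuba3a probes (adjusted p = 0.104 to 0.208). No member probe passed, beside 0.291% of all probes called higher and 0.0708% called lower. At an unadjusted p under 0.05, 5 of 9 were higher, Dazl and Tuba3a, against 10.7% of all probes. The fibroblast markers of the wt ESC array, which had a median of −3.60 in the same fit over the 10 tested, moved with this comparison, and their part in it was not tested. Without the day-12 arrays the Dazl estimate was 2.01 (adjusted p = 0.12), the highest of 10 settings, the main fit among them. The lowest was 1.06, and the limma adjusted p ran from 0.0883 to 0.397.

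Whether the difference between PGCs and ESCs depended on genotype was then tested directly. All 9 member probes, 4 of them of Tuba3a, had a larger estimate in wt than in Gcnf-deficient cells, as had 51.9% of all probes. The median of the interaction, which was the value of Tuba3a probe 4, was −0.75 beside −0.03. Ddx4 had the largest, −3.14 ± 0.79 (SE), of which the undetected wt ESC value is part, then Tex14 with −1.65 ± 0.57 and Dazl with −1.31 ± 0.88. None passed (limma, adjusted p = 0.621, 0.76 and 0.998), and limma called 0% of the 12717 probes in either direction. With 2 residual degrees of freedom, a miss in this fit does not show that the genotypes responded alike. At an unadjusted p under 0.05, 2 of 9 were lower (Ddx4 and Tex14), against 2.85% of all probes. The fibroblast markers had a median of 2.93 in the same fit over the 10 tested, and their part was not tested.

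EpiSCs differed most from the other cells. Dazl had 2.96 and 2.72 on the 2 EpiSC arrays, Tex14 3.10 and 2.71, Taf7l 2.42 and 3.56, and Rnf17 2.92 and 3.14, none of them detected. Both EpiSC values of these 4 genes lay below both ESC values, as they did for all 9 tested member probes and 34.4% of all probes. Dazl was at least 25.5-fold higher in wt ESCs, at least 155-fold higher in wt day-15 PGCs and at least 25.7-fold higher in Gcnf-deficient day-15 PGCs than in EpiSCs. Tex14 was at least 12.0-fold to 28.0-fold higher on the 6 ESC and PGC arrays.

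Against ESCs, 8 of 9 tested member probes fell in EpiSCs (limma, 2 arrays against 2, adjusted p under 0.05), where limma called 10.8% of 12219 probes lower and 10.7% higher. Of the 8, 7 were undetected in EpiSCs and entered the test through the ESC arrays alone. The 2 ESC arrays differ in genotype, so their spread in this fit is not that of replicates. The methods name biological or technical duplicates, and which of these the EpiSC pair was is not given. Tex14 fell by 7.04 ± 0.36 (SE) in log2 (adjusted p = 0.0039) and Dazl by 7.11 ± 0.53 (adjusted p = 0.00596), both at least 15.7-fold. Tuba3a probes 2, 3 and 4 fell by at least 23.9-fold, 29.2-fold and 28.9-fold (adjusted p = 0.0039 to 0.00424).

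Rnf17 fell by at least 1.16-fold (estimate −3.16, adjusted p = 0.00605) and Taf7l by at least 2.04-fold (estimate −4.01, adjusted p = 0.0462). Both calls were lost when either EpiSC array was left out (adjusted p = 0.0682 and 0.0619 for Rnf17, 0.197 and 0.124 for Taf7l, without replicate 1 and without replicate 2). Ddx4 did not pass (−1.71 ± 0.98, adjusted p = 0.269). The median over the 9 probes, which was the value of Tuba3a probe 2, was −5.95, beside 0.01 over all probes tested.

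**Figure D4:**
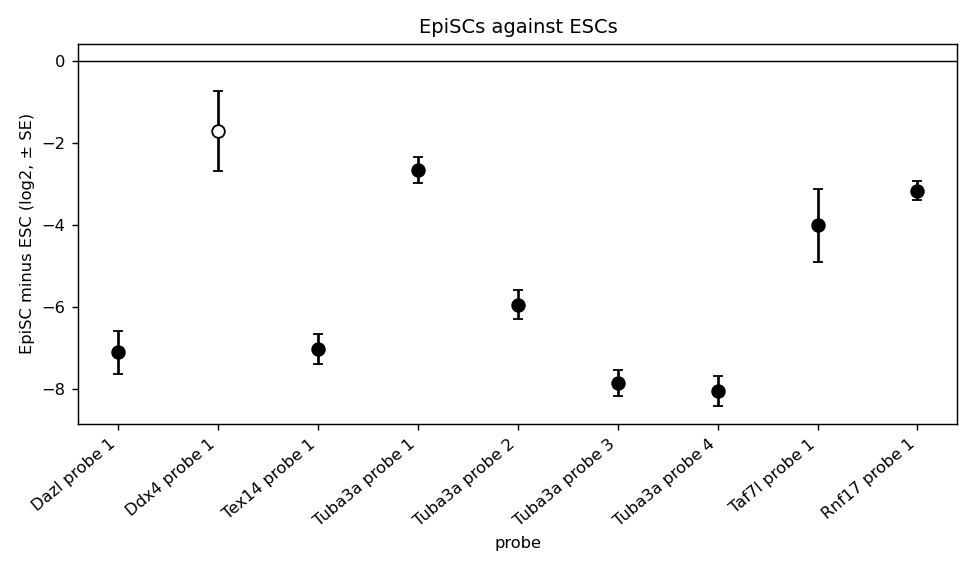
EpiSC minus ESC difference in log2 with its SE (y axis) for the 9 tested member probes (x axis), from 2 EpiSC and 2 ESC arrays. The 2 ESC arrays differ in genotype. Filled points passed an adjusted p of 0.05 in limma and the open point, Ddx4, did not; estimates use undetected signals as they stand.

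The 4 Tuba3a probes did not agree in EpiSCs. Probe 1 was detected on both arrays, at 7.27 and 7.64, and was 6.32-fold lower than in ESCs (adjusted p = 0.0149; 0.112 and 0.0895 without replicate 1 and without replicate 2). Probe 2 had 4.45 and 4.76, probe 3 had 3.01 and 2.94, and probe 4 had 2.62 and 2.90, none of them detected. Probes that differed by up to 1.15 elsewhere were thus 4.65 and 4.74 apart on the 2 EpiSC arrays. Tuba3b, a near-identical paralog, had a mean of 8.68 in EpiSCs and was detected on both arrays. Which transcript probe 1 reads there was not tested.

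**Figure D5:**
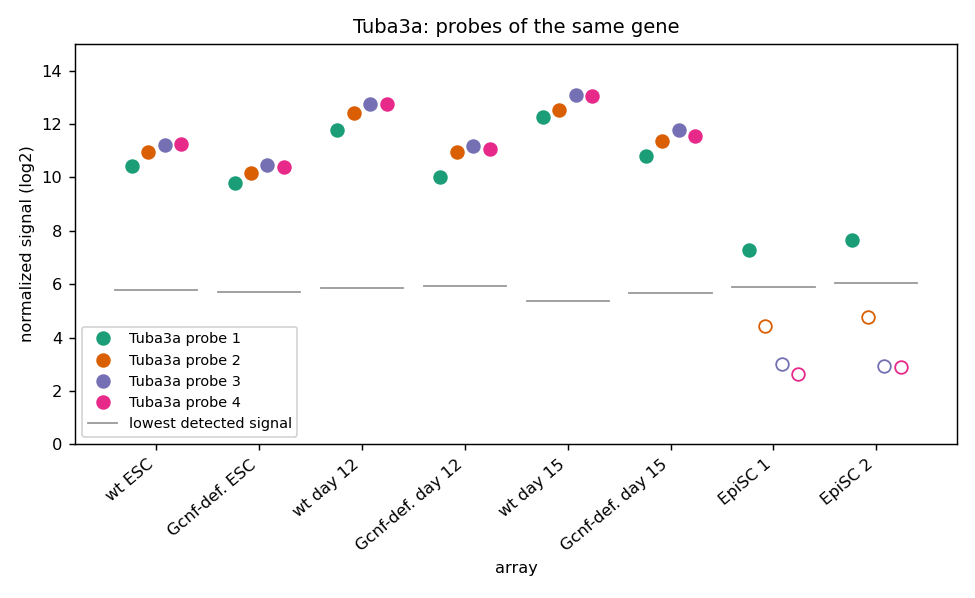
Normalized log2 signal (y axis) of the 4 Tuba3a probes on the 8 arrays (x axis), filled where detected and open where not, with the lowest detected signal of each array as a grey bar. On the 2 EpiSC arrays probe 1 stays above the bar and probes 2 to 4 lie below it.

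Paralogs of the members, most of them used in many tissues, stood at other levels. Tuba1b, the common α-tubulin, had 15.15 to 15.40 on all 8 arrays, and Slc25a5, a carrier of the same family as Slc25a31, 14.26 to 14.98. Taf7, the partner gene of Taf7l, was near the limit with 4.96 to 6.86. It had 6.77, 6.20 and 6.86 in wt ESCs, day-12 and day-15 PGCs. Its Gcnf-deficient values were 4.96, 5.79 and 5.50, none of them detected. All of these lay below all wt values, as for Taf7l. Of 10 such paralogs with a probe, 8 were tested. None passed in the genotype fit (0 by limma). At an unadjusted p under 0.05, 3 were lower (Taf7, Nanos1 and Boll), against 6.74% of all probes. Taf7 and Boll were detected on wt arrays alone and entered the test through them, so their direction is no support. In EpiSCs 1 fell, the germ cell gene Boll, which only the wt ESC array detected, against 10.8% of all probes. Nanos1 and Boll are also in the list of germ cell genes below.

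A list of 33 other gonadal germ cell and germ granule genes with a probe, written with earlier results of these data known, gave 16 to 21 detected genes on the 6 ESC and PGC arrays and 5 and 4 on the EpiSC arrays. For genotype, 22 were tested and 0 passed. At an unadjusted p under 0.05, 11 were lower and 0 higher, beside 6.74% and 6.69% of all probes. Among the 11 was Boll, which entered the test through the wt ESC array alone. The median was −0.73 beside −0.02 over all probes. Over 4-fold lower in Gcnf-deficient cells were 1 of 20 in ESCs (2.85% of all probes), 3 of 18 on day 12 (1.1%) and 3 of 21 on day 15 (1.62%), and 1 of 20 was over 4-fold higher in ESCs (2.09%). Of these, Tex13b in ESCs and Nanos3 on day 12 were undetected without Gcnf and had bounds of 1.55-fold and 2.43-fold. Asz1, a germ granule protein of the piRNA pathway, had 8.30, 7.63 and 9.67 in wt ESCs, day-12 and day-15 PGCs and 6.88, 6.00 and 6.92 without Gcnf. Mov10l1, the helicase that starts piRNA processing, had 6.94, 7.21 and 9.31 against 5.33 (undetected), 5.98 and 7.27. Both lay lower without Gcnf at each stage, as Dazl did.

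Other members of that list went their own way. Stra8, which starts meiosis, had 7.47, 8.75 and 10.42 in wt cells and 10.14, 6.43 and 8.12 in Gcnf-deficient cells, higher without Gcnf in ESCs and lower in PGCs, the order that Tex14 showed. Dppa4, a chromatin protein of pluripotent and germ cells, had 13.46 to 13.94 on all 6 ESC and PGC arrays. Against ESCs, 13 of 21 tested fell in EpiSCs and 3 rose (Tdrkh, Piwil1 and Ddx25), beside 10.8% and 10.7% of all probes. The median was −3.32. Of those that fell, all but Tex19.1 were undetected on both EpiSC arrays and entered the test through the ESC arrays alone. In PGCs against ESCs 1 of 22 passed, Brdt, a bromodomain protein of spermatocytes that neither ESC array detected, by 2.70 in log2.

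Later spermatogenic genes were mostly below the limit: of 16 with a probe, 2 or 3 were detected on each ESC and PGC array and 5 were tested. Ldhc, the germ cell lactate dehydrogenase, and Odf2, a protein of the sperm tail and of centrosomes, stood well above it, at 7.97 to 9.25 and at 8.23 to 9.21 on those arrays. Ldhc was undetected in EpiSCs, whereas Odf2 was detected on all 8 arrays. Among 17 repressors of germline promoters, 15 were tested for genotype and 0 passed. At an unadjusted p under 0.05, 1 was higher (Dnmt3l, a cofactor of DNA methylation, by 1.12), beside 6.69% of all probes. E2f6 had 10.31 to 10.64 on all 8 arrays. In EpiSCs 3 of 16 rose, beside 10.7% of all probes. Among them was Dnmt3b, a DNA methyltransferase, from 12.94 and 13.06 in the 2 ESC arrays to 15.19 and 15.14. Dnmt3l fell from 12.87 and 13.69 to 5.02 and 5.66, neither of them detected (limma, adjusted p = 0.0039).

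By likeness over the 8 arrays (Pearson r, 5501 genes with an SD over 0.5), the genes closest to Dazl were Morc3 (0.99), Trip12, Usp33, Scmh1 and Zcwpw1. Those closest to Tuba3a, read by probe 1, which differed from its other probes in EpiSCs, were Pnck (0.99), Dazl, Oaz2, Tuba3b and Zfp809. Those closest to Taf7l were Tlr2 (0.99), Arfgap3, Zfp715, Cnot6l and Itprid2. For Tex14 they were Rbmxl2 (0.99), Tfap2c, Fmr1nb, Dppa4 and Bnip5, and for Rnf17 Nr5a2 (0.99), Gm428, Phf11d, Stk31 and Morc3. For Ddx4 they were Btbd10 (0.97), Catsperd, Ankrd46, Nusap1 and Rab39. Over the 6 ESC and PGC arrays alone, the values for Tex14 and its 5 genes were 0.42 to 0.79, whereas Tuba3a and Dazl (0.99) and Ddx4 and Catsperd (0.99) were higher than over all 8.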

How the data were processed

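Per the file headers and the methods, the authors read bead signals with BeadStudio 3.2, and the deposited table holds the resulting signal intensity and a detection p-value for each of 25697 probes on each of 8 arrays. A further table deposited by the authors gives log2 values, made with the RMA background model and lumi's quantile method. The signals were processed again by those steps (R 4.3.3, limma 3.58.1), and the result correlated with the authors' values at 0.998. Symbols came from the platform annotation, with 23978 probes having 1 symbol and 1719 none. The samples were grouped by their titles, since every label gives the cell type as PGC.

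A probe was tested if detected (p under 0.01) on at least 1 array of a fit. limma was fitted to the whole table with Benjamini-Hochberg adjustment, for genotype (2 residual degrees of freedom), PGCs against ESCs (3), their interaction (2) and EpiSCs against ESCs (2). Stages or days stood in for replicates, nothing says that arrays came from separate cultures, and p-values measure only the spread between these arrays. Single arrays were compared by a 4-fold limit. The fits were tested on simulated data in which a small set of probes changed and all others had no effect. For changes of 2 in log2, the genotype fit found 37%, PGCs against ESCs 57%, the interaction 0% and EpiSCs against ESCs 14%. For changes of 4 these shares were 96%, 97%, 0% and 84%. In the real EpiSC fit limma called 2617 of 12219 probes, so the simulated shares need not hold for it. The number of arrays limits the precision.

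All member probes are named. From each list, genes over 4-fold apart between single arrays or up to 4 of the highest signals were named. Prdm1, Taf7, Nanos1, Boll, E2f6, Tdrkh, Piwil1 and Ddx25 fall outside this and were chosen after their values were seen. For each member detected on at least 3 arrays the 5 most correlated genes are named. The members and lists were chosen with earlier results of these data known. The alternatives were the authors' values, other background corrections, median scaling, other detection limits, an intensity trend, no stage block, a 2-fold limit, and arrays left out.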

Additional observations from a re-analysis of the deposited data

Results flagged for a closer look

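Tex14 was looked at again because its PGC minus ESC difference went opposite ways in the 2 genotypes: both wt PGC arrays lay above wt ESCs and both Gcnf-deficient PGC arrays lay below Gcnf-deficient ESCs. The difference between the genotypes was −1.65 in log2 (limma interaction, adjusted p = 0.76, unadjusted p = 0.0316), so it did not pass, in a fit with 2 residual degrees of freedom. It ranged from −1.76 to −1.46 over the alternatives.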

How the results depend on the processing

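With 1 array for a condition, calls on genotype moved with the model. For genotype across stages, 2 member probes passed with neqc background correction, 4 with an intensity trend in the variance and 2 without the ESC arrays, against 0 (Dazl and Taf7l each time, with 2 Tuba3a probes under the trend), while all probes called ranged from 0 to 103. For PGCs against ESCs, 1 member probe passed with no background correction and 3 with an intensity trend, all of Tuba3a, against 0. For EpiSCs against ESCs, 5 member probes passed without replicate 1 and 5 without replicate 2, against 8, with Tuba3a probe 1, Taf7l and Rnf17 lost. Taf7l also lost this call with the authors' values, neqc, no background correction, no detection filter and a detection limit of 0.05, with adjusted p from 0.0527 to 0.06. The single-array differences over 4-fold numbered 9, but 4 with no background correction and 37 at a 2-fold limit. The Ddx4 genotype estimate turned to −0.39 without the ESC arrays, and the Taf7l PGC estimate to −0.44 without the day 15 arrays. Of 324 member estimates under alternatives, 299 kept their direction and side of the threshold, 11 lost it, 12 gained it and 2 turned. The cause of these shifts was not tested. Wt and Gcnf-deficient arrays were paired by stage alone, since their groups share no more than 1 replicate number. Without the stage block 0 member probes passed, and the adjusted p (limma) was 0.447 for Dazl and 0.28 for Taf7l. Signal over background limits Ddx4, Rnf17 and Taf7l, whose weaker signals lie at the edge of detection.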
